A study of Mus musculus with 3 samples.

Results

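Organic ion carriers and ATP-binding cassette (ABC) transporters move bile acids, drugs, hormones, vitamins and lipids across the membranes of hepatocytes, the parenchymal cells of the liver. The genes described here are those that the array design names with the symbol pattern of the Slco, Slc22a, Slc47a, Slc17a and Abca to Abcg families. Slco1a1, Abcb11, Abca1, Abcg5 and Abcg8 also fit that pattern and were left out of the set, which holds 90 of the 31803 gene names on the array. The naming rule itself uses no measured value.

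The study measured RNA of hepatocytes isolated with collagenase from male C57BL/6 mice after an overnight fast, on 3 arrays of 1 colour, 1 array per group. The anti-VLA-4 group was fed a high-fat diet for 16 weeks from 6 weeks of age and, after the first 10 weeks, received a blocking antibody against VLA-4 intraperitoneally 2 times a week for 6 weeks. VLA-4 is an integrin by which leukocytes bind VCAM-1 on endothelial cells. The HFD-IgG group had the same diet with control IgG on the same schedule, and the standard-diet group was kept on a standard diet to the same age of 22 weeks, with no injection listed in its labels. All groups share sex, strain, fasting and isolation method, the labels name no genetic change in any group, and they do not give how many mice contributed to an array.

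Uptake carriers of the sinusoidal membrane, which faces the blood, include the organic anion transporting polypeptides (OATPs, Slco genes) and the Slc22 carriers of organic anions, organic cations and carnitine. ABC transporters use ATP to export their substrates, and those of the canalicular membrane form bile by secreting bile salts, phospholipid, sterols and conjugated bilirubin. Other ABC proteins work inside the cell, in the membranes of peroxisomes, mitochondria and lysosomes, and those of the ABCE and ABCF families are soluble ATPases that act on ribosomes.

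Each value below is a level, the background-subtracted signal of a probe divided by the 75th percentile of signals on its array, so a level of 1 equals that percentile. A gene takes the probe with the highest mean log2 level over the arrays. The 75th percentile of signal was 514 with anti-VLA-4, 500.3 with HFD-IgG and 574 with standard diet, and 0 of 43020 spots were saturated. A single array per group allows no test, no spread between animals and no p-value. Genes are described as called when they differ by at least 2-fold, and a log2 difference of a bright probe has a scanner error of 0.20, which covers error within an array only. A gene is said to be detected on an array where the scanner software marked its probe as well above background. A fold against an array where the gene was not detected is written as "at least" and is a bound, taken against the lowest signal still marked in that way or the probe's own, whichever is higher. The HFD-IgG and standard-diet arrays lay on 1 slide and the anti-VLA-4 array on another, so the antibody and the slide cannot be told apart. Levels of different genes come from different probes, so their order says nothing of transcript abundance.

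The probes that carry the main results are 60-base oligonucleotides, and the first 30 bases of 7 of them are shown here, 5′ to 3′, with purines (A and G) in capitals, because calls on these arrays differed with the purine content of the probe. The Slc22a7 probe (chr17:46569272-46569331, minus strand, build mm9 as all positions here) stands first, since it gave the largest difference between arrays that both detected the gene.
Slc22a7: cctGtGtttAtccAGtctccAAAAAcAGGA
The carnitine carriers Slc22a5 (chr11:53678550-53678609, minus strand) and Slc22a21 (chr11:53764508-53764567, minus strand) are shown because both were lower with HFD-IgG.
Slc22a5: GtGtAAAtcAAAAttctGGctGccAGccAc
Slc22a21: AcAtGGGccttccAAAGAAAtGAAttGAGt
The ABC transporters Abcd2 (chr15:90976565-90976624, minus strand) and Abcc9 (chr6:142536920-142536979, minus strand) were at least 2-fold higher with HFD-IgG under every processing alternative that included them.
Abcd2: cAAGGAAAAtGAAGtAtAGctccGGctAtc
Abcc9: AttGcGttGcttGGGctAcctccGAtGAcA
The OATPs Slco1b2 (chr6:141634476-141634535, plus strand) and Slco1a4 (chr6:141754675-141754734, minus strand) stand for the bright uptake carriers that had a higher level with anti-VLA-4 than with HFD-IgG.
Slco1b2: tcAAAAtttGcAtGGtGctAttctctcctG
Slco1a4: tAtctcGGtGGAtAtGtGAttGcctAAtAc
The share of purines in the whole probe was 48.3% for Slc22a7, 51.7% for Slc22a5, 58.3% for Slc22a21 and 53.3% for Abcd2. It was 48.3% for Abcc9, 45% for Slco1b2 and 51.7% for Slco1a4. Over the 90 genes the median was 49.2%, with a range of 35% to 66.7%, against a median of 50% over all gene names. Whether these positions lie in coding exons or untranslated exons was not determined, since no mm9 annotation was used here.

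Of the 90 genes, 57 were detected on all 3 arrays, 12 on 1 or 2 arrays and 21 on none. The array of anti-VLA-4 detected 64 of them, that of HFD-IgG 63 and that of standard diet 60. All 4 ABCD and all 4 ABCE and ABCF genes were measured on every array, as were 7 of 9 ABCB genes, 7 of 10 ABCC genes, 7 of 9 Slc17 genes and 9 of 15 ABCA genes. The OATPs were the family with most genes undetected: 5 of 14 were detected on all 3 arrays and 7 on none. The 21 undetected genes included the renal carriers Slc22a2, Slc22a8 and Slc22a12, the neuronal vesicular glutamate carriers Slc17a6 and Slc17a7, the retinal Abca4 and the pancreatic Abcc8, each named here for the tissue where it is best known.

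**Figure D1:**
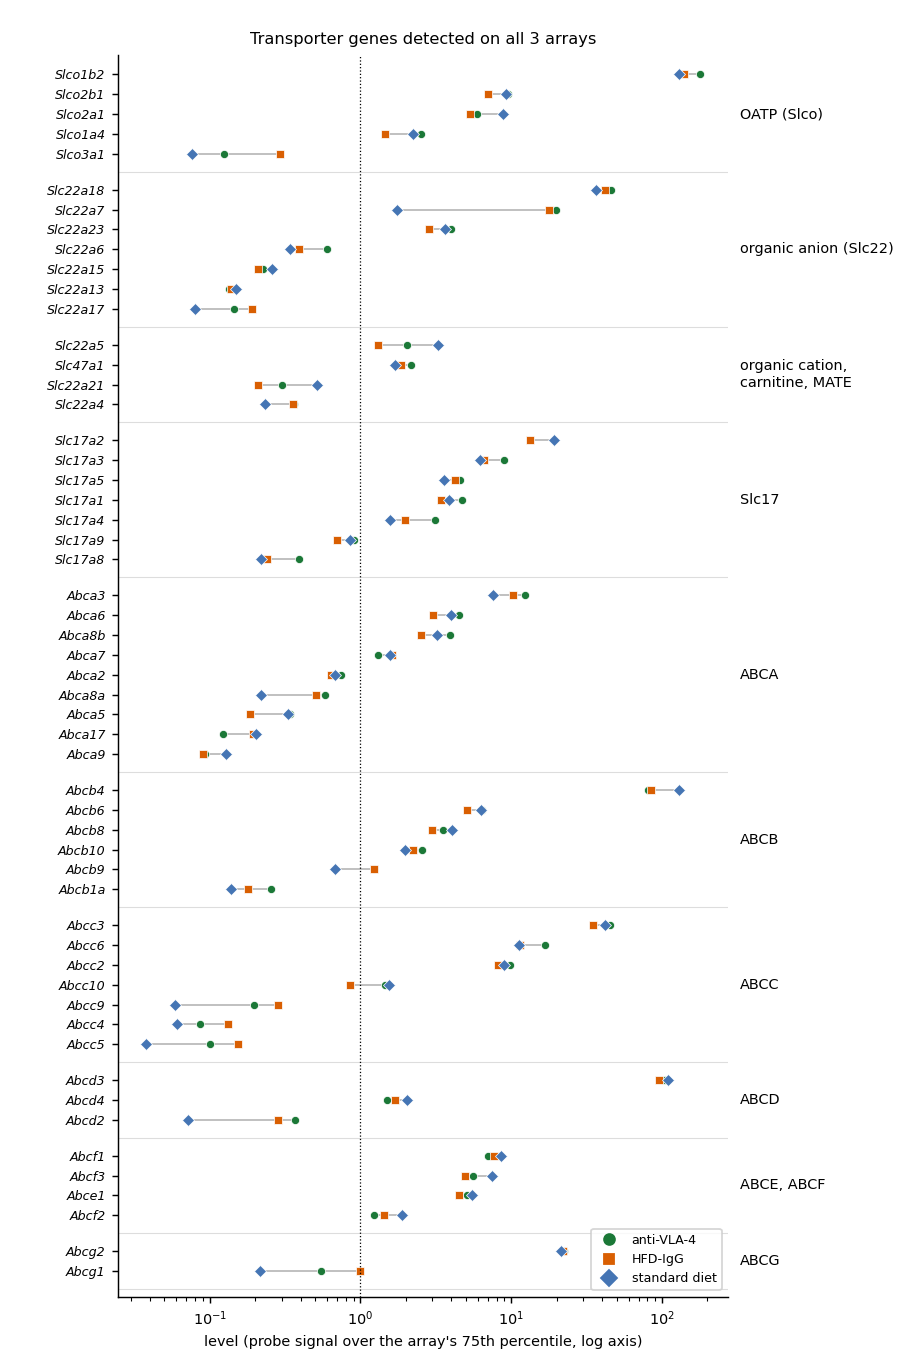
Level of 54 of the 57 genes detected on all 3 arrays, by family, with the anti-VLA-4 array as circles, the HFD-IgG array as squares and the standard-diet array as diamonds (log axis; 1 array per group, so no error bar). The levels span 0.0378 for Abcc5 on the standard-diet array to 179.5 for Slco1b2 on the anti-VLA-4 array, and the widest gap is that of Slc22a7, at 19.8 and 17.7 on the high-fat diet arrays and 1.74 on the standard-diet array.

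The label of the samples as hepatocytes was set against marker genes. All 15 hepatocyte markers were detected on all 3 arrays, and their levels summed to 5539 with anti-VLA-4, 5594 with HFD-IgG and 5715 with standard diet. Between HFD-IgG and standard diet 14 of the 15 differed by less than 2-fold, and Cps1, a urea cycle enzyme, was lower. Markers of other liver cells differed between the arrays. The 13 markers of Kupffer cells and macrophages summed to 55.4, 73.1 and 11.1 in the order anti-VLA-4, HFD-IgG and standard diet, and all 13 were called higher in HFD-IgG over standard diet. For 12 sinusoidal endothelial markers these sums were 37.0, 62.5 and 16.0, with 10 higher on HFD-IgG over standard diet, and for 10 stellate cell and fibroblast markers they were 16.2, 32.8 and 3.39, with 9 higher. Of 6 cholangiocyte markers, summing to 0.753, 0.951 and 0.506, 4 were higher. Of 6 T and NK cell markers, summing to 3.71, 3.42 and 3.98, 1 was higher and Cd8a was detected on no array. Of 5 neutrophil and monocyte markers, summing to 70.0, 80.9 and 71.8, 2 were higher. Over all gene names, 20.4% were called higher in HFD-IgG over standard diet. Of the markers called higher, Timd4, Cd68, Lrat, Des, Pdgfrb, Col1a1, Col3a1, Krt7, Epcam, Cftr and Cd3g were not detected with standard diet. Their calls rest on bounds. In anti-VLA-4 over HFD-IgG 12 of the 13 Kupffer cell markers were below 0 with none called, while all 12 endothelial and all 10 stellate markers were below 0, with 4 and 5 called lower. Of the cholangiocyte markers 3 were called lower, Krt7, Krt19 and Epcam, which like Des were not detected with anti-VLA-4. Over all gene names, 16.5% were called lower and 1.90% higher in this comparison. In the other direction S100a8 and S100a9, of the neutrophil list, were 4.09-fold and 4.62-fold higher, and Gzma, of the T and NK cell list, was called higher while Cd3g was called lower. In bulk RNA, fewer cells of a type and less RNA per cell cannot be told apart.

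HFD-IgG over standard diet sets the high-fat diet with IgG injections against the standard diet. Slc22a7, a hepatic organic anion carrier, was 10.2-fold higher, the largest difference among the genes detected on both arrays. Abcc9, Abcg1, Abcc5, Abcd2 and Slco3a1 were 3.85-fold to 4.87-fold higher, and the carnitine carriers Slc22a5 and Slc22a21 were 2.49-fold and 2.45-fold lower. Of 66 genes compared, 14 were at least 2-fold higher (21.2%), where 20.4% of 21963 gene names were, and 3 were lower (4.55%), where 2.42% were. The share of genes higher was thus near that of all genes on the array. The median log2 difference was -0.02 over the transporters and 0.04 over all gene names, with 33 genes above 0 and 33 below.

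The antibody was set against the control IgG, on the same diet, in anti-VLA-4 over HFD-IgG. No transporter was at least 2-fold higher, where 1.90% of 22551 gene names were, and 6 of 68 were lower (8.82%), where 16.5% were. Of those 6, Slco6c1, Abca12, Abca13 and Abca14 were detected with HFD-IgG but not with anti-VLA-4, and Abcc12 and Slco3a1 were detected with both. The median log2 difference was 0.16 over the transporters and -0.06 over all gene names. Against standard diet, the anti-VLA-4 array had 6 of 65 genes at least 2-fold higher (9.23%), where 7.99% of 20298 were, and 1 lower (1.54%), where 3.39% were. The 3 comparisons share arrays in pairs, so their differences are not independent of each other.

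**Figure D2:**
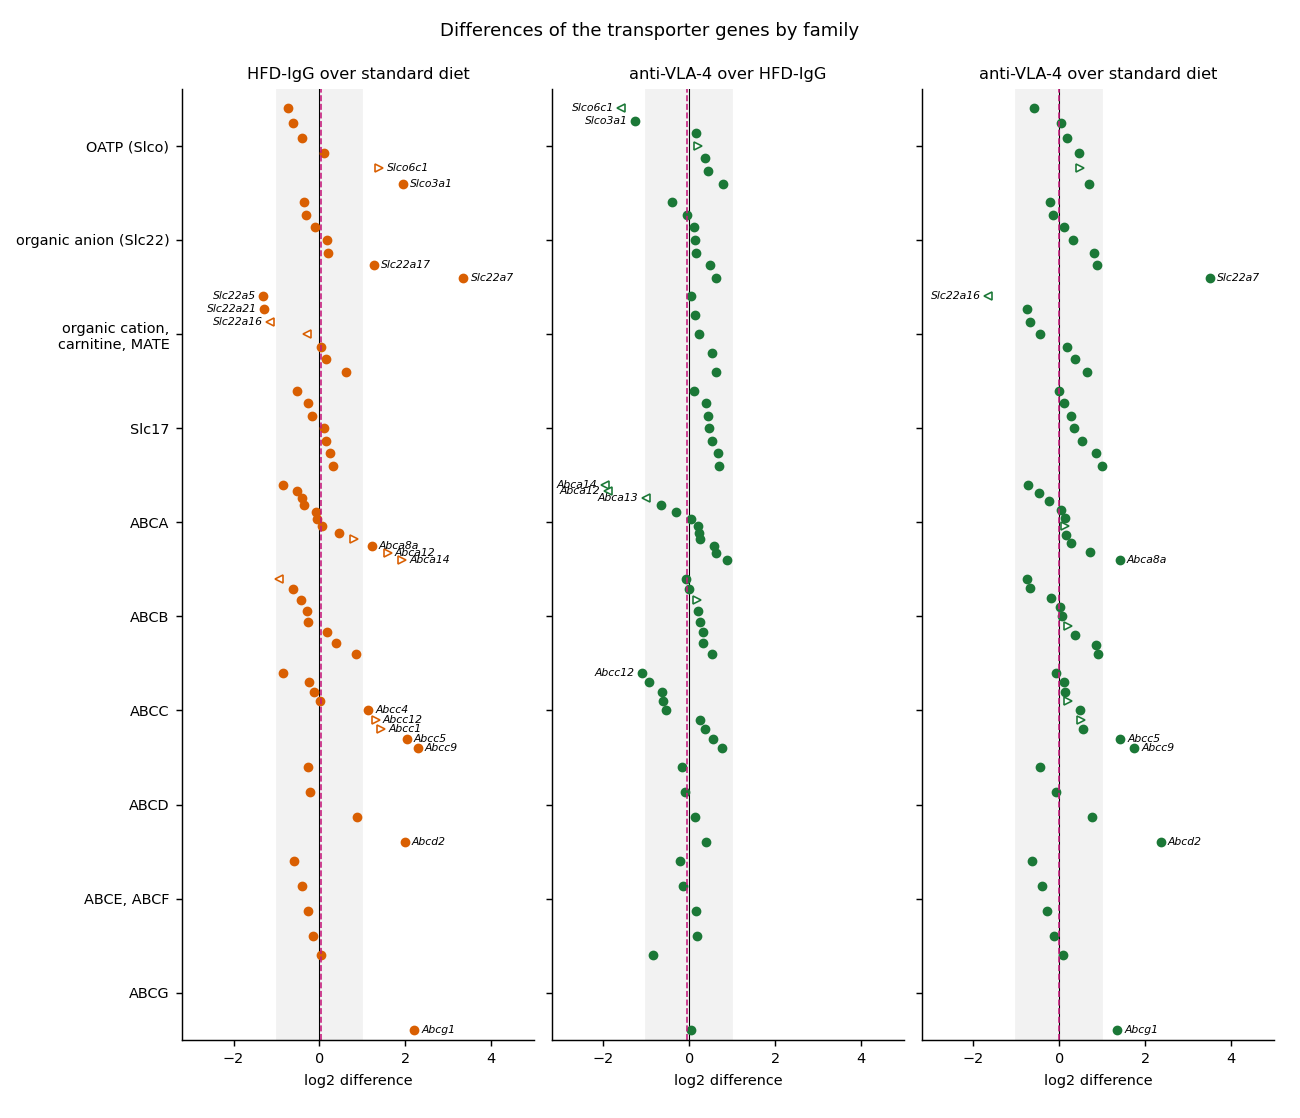
Log2 difference of the transporters compared, by family, for HFD-IgG over standard diet, anti-VLA-4 over HFD-IgG and anti-VLA-4 over standard diet. Filled circles were measured on both arrays and open triangles are lower bounds. The grey band spans less than 2-fold and the dashed line is the median of all gene names. In the second panel 3 compared genes that gave neither a measured difference nor a bound are not drawn. Genes at least 2-fold different are named: 14 lie right of the band and 3 left of it in the first panel, 0 and 6 in the second, and 6 and 1 in the third.

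Probe brightness split these counts. Where only gene names above the 75th percentile on either array were counted, 1 of 35 transporters was higher with HFD-IgG over standard diet, against 4.27% of 8641 gene names, and 1 was lower, against 1.93%: Slc22a7 and Slc22a5. For anti-VLA-4 over HFD-IgG 0 of 35 were higher, against 0.806% of 8558, and 0 were lower, against 1.30%. For anti-VLA-4 over standard diet 1 of 35 was higher, against 3.34% of 8570, and 0 were lower, against 1.55%. Most called transporters therefore had levels below 1. By purine content, the counts were as follows. Among probes of at most 50% purines, 6 of 33 transporters were higher with HFD-IgG over standard diet (18.2%, against 11% of all gene names), and among probes of more than 50% purines 8 of 33 were (24.2%, against 30%). For anti-VLA-4 over HFD-IgG, 1 of 34 transporters was lower among probes of at most 50% purines (2.94%, against 6.13%) and 5 of 34 among the others (14.7%, against 27.2%).

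Most of the bright transporters were slightly higher with anti-VLA-4 than with HFD-IgG. On all 3 arrays 33 transporters exceeded the 75th percentile, and 28 of these 33 (84.8%) had a higher level with anti-VLA-4 than with HFD-IgG, where 49.6% of 7726 gene names of that brightness did. Each of the 33 differed by less than 2-fold. The median log2 difference was 0.24 over the 33 and 0.00 over the 7726, and the range ran from -0.30 for Abca7 to 0.79 for Slco1a4. The difference, in either direction, exceeded its scanner error for 20 of the 33 transporters and for 42.1% of the 7726. Abca7 and Abcf2, both lower with anti-VLA-4, are among the 20. Of the 15 hepatocyte markers 10 were above 0 in this comparison, with a median log2 difference of 0.17, while the medians of the endothelial and stellate markers were -0.92 and -0.98. Their part in the result was not tested. Under quantile scaling and cyclic loess 28 of the 33 were again above 0, against 48.5% and 47.2% of the bright gene names, and under normexp background correction 29 were, against 75.3%. In HFD-IgG over standard diet 13 of the 33 were above 0 (39.4%), against 36.0% of the bright gene names, and in anti-VLA-4 over standard diet 22 were (66.7%), against 37.3%. These 2 counts rest on the processing: under normexp 2 of the 33 were above 0 in HFD-IgG over standard diet, against 7.1% of the bright gene names, and 9 in anti-VLA-4 over standard diet, against 15.1%, where the median of the 33 turned from 0.12 to -0.23. The 28 genes include carriers of both membranes and of several organelles, described by family next.

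**Figure D3:**
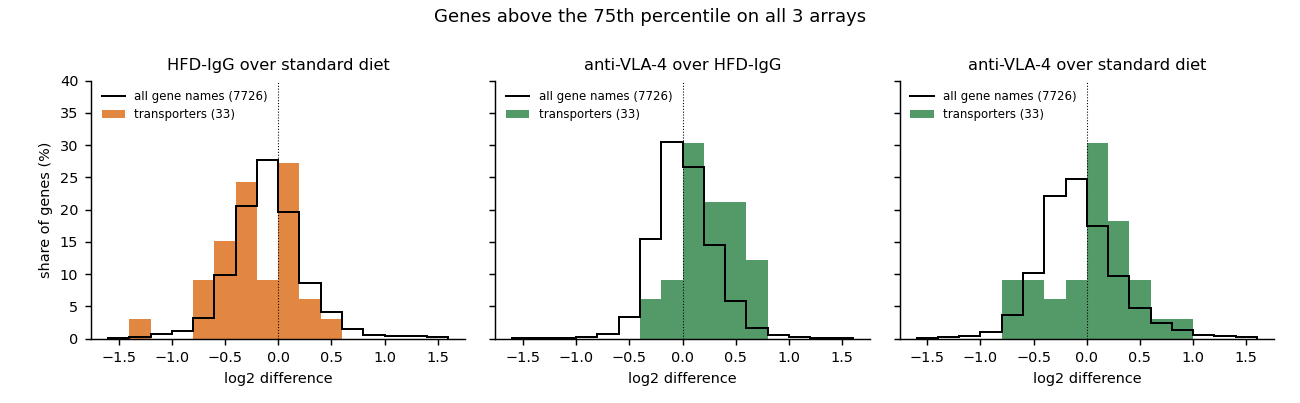
Share of the 33 transporters (bars) and of 7726 gene names (line) above the 75th percentile on all 3 arrays in each bin of 0.2 of the log2 difference, for the 3 comparisons. In the middle panel 84.8% of the transporters lie above 0, against 49.6% of all; Slc22a7, at 3.35 and 3.51 over standard diet, lies beyond the axis.

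Of the OATPs, Slco1b2, the main hepatic OATP of the mouse, which takes up bile acids, bilirubin and many drugs, had levels of 179.5 with anti-VLA-4, 139.8 with HFD-IgG and 130.3 with standard diet. Its log2 difference was 0.36 for anti-VLA-4 over HFD-IgG and 0.10 for HFD-IgG over standard diet, the second within the scanner error. Slco1a4, an OATP that carries cardiac glycosides and organic anions, had levels of 2.53, 1.46 and 2.24 in the same order. It was lowest on the HFD-IgG array, 1.73-fold below the anti-VLA-4 array and 1.54-fold below the standard-diet array. Its sequence is close to those of Slco1a5 and Slco1a6, neither of which was detected on any array. Slco2b1, a broad carrier of steroid sulfates and drugs, showed the same order of arrays, at 9.46, 6.97 and 9.25.

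Slco2a1, the prostaglandin transporter, was highest on the standard-diet array: 5.95 with anti-VLA-4, 5.32 with HFD-IgG and 8.87 with standard diet. Slco3a1, a widely expressed OATP, behaved otherwise, with 0.124, 0.294 and 0.0765. It was 3.85-fold higher with HFD-IgG over standard diet and 2.38-fold lower with anti-VLA-4 over HFD-IgG, and its second probe gave log2 differences of 2.19 and -0.62 for these comparisons. Slco3a1 is thus the only gene of the set measured on all 3 arrays that was called in both comparisons, in opposite directions. Slco6c1, best known from testis, was detected with HFD-IgG alone, at least 2.62-fold higher than with standard diet, and was at least 3.01-fold lower with anti-VLA-4. Slco4a1, a thyroid hormone carrier, was detected with anti-VLA-4 alone, at 0.0361, at least 1.14-fold over HFD-IgG.

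Slc22a7 encodes OAT2, a basolateral carrier of organic anions in the liver. Its level was 19.8 with anti-VLA-4, 17.7 with HFD-IgG and 1.74 with standard diet. Both high-fat diet arrays were high and the standard-diet array low, while the difference between anti-VLA-4 and HFD-IgG, 0.16 on the log2 scale, was below the scanner error. The log2 differences were 3.35 ± 0.20 for HFD-IgG over standard diet and 3.51 for anti-VLA-4 over standard diet (scanner error, 1 array each). The gene has 1 probe, so no second probe checks it. Across 11 alternative settings the first difference lay between 2.67 and 3.45, and it was at least 2-fold in each.

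The other Slc22 organic anion carriers were flatter. Slc22a18, an imprinted gene for a carrier of organic cations and drugs that is grouped here with the anion carriers and orphans, had levels of 45.7, 41.6 and 36.6 with anti-VLA-4, HFD-IgG and standard diet. Slc22a23, an orphan carrier, had 3.96, 2.83 and 3.65. Slc22a6, the renal carrier OAT1, was measured at 0.595, 0.390 and 0.338. None of these differed by 2-fold in any comparison. Slc22a17, known as a receptor for lipocalin-2, had 0.146, 0.192 and 0.0797 and was 2.41-fold higher with HFD-IgG over standard diet.

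Slc22a5 encodes OCTN2, the carrier that brings carnitine into cells for the mitochondrial import of long-chain fatty acids. It had levels of 2.03 with anti-VLA-4, 1.32 with HFD-IgG and 3.28 with standard diet, so the HFD-IgG array was lowest and the anti-VLA-4 array lay between the other 2. The fold was 2.49 lower for HFD-IgG over standard diet, 1.54 higher for anti-VLA-4 over HFD-IgG and 1.61 lower for anti-VLA-4 over standard diet. Slc22a21, the mouse carnitine carrier OCTN3, had the same order, at 0.303, 0.209 and 0.513, 2.45-fold lower with HFD-IgG over standard diet. Under normexp background correction its log2 difference was 0.27, with the sign turned, whereas that of Slc22a5 stayed between -1.52 and -1.21 over 10 alternatives.

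The third gene of this cluster, Slc22a4, encodes OCTN1, a carrier of ergothioneine. It went the other way from its neighbours, with 0.363, 0.357 and 0.234, 1.53-fold higher with HFD-IgG over standard diet. The 3 probes lie within 118 kb on chromosome 11. Slc22a16, a carnitine carrier best known from testis, was detected with standard diet alone, at 0.0702, and was at least 2.23-fold lower with HFD-IgG and at least 3.13-fold lower with anti-VLA-4.

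Slc47a1, which encodes MATE1, the antiporter that passes organic cations to bile, was nearly level, with 2.17, 1.86 and 1.69 with anti-VLA-4, HFD-IgG and standard diet. Its largest log2 difference between arrays was 0.37.

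The Slc17 genes, which include carriers of urate and other organic anions and the lysosomal sialic acid exporter, showed 1 direction between anti-VLA-4 and HFD-IgG. All 7 measured genes were higher with anti-VLA-4 than with HFD-IgG, where 42.4% of all gene names were. Their median log2 difference was 0.46, against -0.06 for all gene names. Slc17a1 to Slc17a5 are among the 33 bright transporters, of which 28 were above 0, so for these genes this is no separate result. None reached 2-fold, and all 7 stayed above 0 under quantile scaling, cyclic loess and normexp. Slc17a2 had levels of 19.1, 13.3 and 19.1 with anti-VLA-4, HFD-IgG and standard diet, and Slc17a1 had 4.70, 3.41 and 3.86. In both of these the HFD-IgG array was lowest.

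Slc17a3, with 9.01, 6.64 and 6.19, and Slc17a4, with 3.13, 1.96 and 1.57, were instead highest with anti-VLA-4 and lowest with standard diet. Slc17a4 was 1.99-fold higher with anti-VLA-4 over standard diet, just short of a call. Probes of Slc17a1 to Slc17a4 lie within 75.3 kb on chromosome 13, and these related genes may share signal. Slc17a8, a vesicular glutamate carrier, had 0.391, 0.241 and 0.217, while the sialic acid exporter Slc17a5, with 4.57, 4.27 and 3.60, differed by no more than 0.34 on the log2 scale. A second, dimmer probe of Slc17a5, with 0.582, 0.550 and 0.837, gave -0.61 against 0.25 for HFD-IgG over standard diet. For anti-VLA-4 over standard diet it gave -0.52 against 0.34, so the direction from standard diet depends on the probe.

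Of the ABCA lipid transporters, Abca3, best known for loading surfactant phospholipid into lamellar bodies of the lung, had levels of 12.3, 10.3 and 7.56 with anti-VLA-4, HFD-IgG and standard diet. Abca6 had 4.51, 3.05 and 4.01, and Abca8b had 3.90, 2.52 and 3.23, lowest with HFD-IgG in both cases. Abca8a, by contrast, was 2.32-fold higher with HFD-IgG over standard diet, with 0.579, 0.508 and 0.219. Its copy Abca8b is closely related, so signal between the copies is uncertain.

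These genes belong to a cluster of 5 on chromosome 11, whose probes lie within 335 kb: Abca8b, Abca8a, Abca9, Abca6 and Abca5. In anti-VLA-4 over HFD-IgG all 5 were above 0, where 42.4% of all gene names were. The differences of Abca9 (0.04) and Abca8a (0.19) were within the scanner error. In HFD-IgG over standard diet 4 were below 0, and these 2 comparisons share the HFD-IgG array. Under normexp 2 of the 5 were above 0 in the first and 2 below 0 in the second, where Abca5 turned from -0.84 to 0.72. Abca5 had 0.339, 0.184 and 0.330, yet its second probe gave the opposite sign, -0.47 against 0.88 for anti-VLA-4 over HFD-IgG, so its direction depends on the probe. Abca17 had 0.123, 0.194 and 0.201. Abca12 of keratinocytes, Abca13 and Abca14 were detected with HFD-IgG alone. Against standard diet Abca12 was at least 3.01-fold and Abca14 at least 3.79-fold higher there.

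In the ABCB family, Abcb4, the floppase that supplies phosphatidylcholine to bile, had levels of 80.6 with anti-VLA-4, 84.6 with HFD-IgG and 129 with standard diet. Against standard diet it was 1.61-fold lower with anti-VLA-4 and 1.53-fold lower with HFD-IgG, and these 2 arrays differed by less than the scanner error. The P-glycoprotein genes Abcb1a and Abcb1b, close paralogs with neighbouring probes, export drugs. Abcb1a had 0.255, 0.178 and 0.137, and Abcb1b had 0.0359, 0.0234 and 0.0607, and Abcb1b was not detected with HFD-IgG. The mitochondrial Abcb6, Abcb8 and Abcb10 stayed within 1.35-fold in all 3 comparisons. Abcb9, a lysosomal peptide transporter, had 1.24 on both high-fat diet arrays and 0.681 on the standard-diet array.

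The bright ABCC genes were level or higher with anti-VLA-4. Abcc2, the canalicular exporter of conjugated bilirubin, had 9.77, 8.18 and 8.91 with anti-VLA-4, HFD-IgG and standard diet. Abcc3, which returns conjugates to the blood, had 45.0, 35.0 and 41.7. Abcc6, the hepatic transporter whose loss in humans causes pseudoxanthoma elasticum, had 16.6, 11.3 and 11.3, 1.47-fold higher with anti-VLA-4 over HFD-IgG, and its second probe gave 1.53-fold. Abcc10, a broad exporter, had 1.46, 0.857 and 1.54 and was lowest on the HFD-IgG array.

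Of 9 ABCC genes compared, 5 were called higher with HFD-IgG over standard diet, where 20.4% of all gene names were. All of these ABCC genes were dim. Among gene names above the 75th percentile on either array, 4.27% were called higher. Abcc9, the sulfonylurea receptor subunit of potassium channels in smooth muscle and pericytes, had 0.196 with anti-VLA-4, 0.285 with HFD-IgG and 0.0586 with standard diet, 4.87-fold higher with HFD-IgG and 3.35-fold higher with anti-VLA-4 over standard diet. Abcc5, an exporter of cyclic nucleotides and other organic anions, had 0.101, 0.155 and 0.0378 and was 4.09-fold higher with HFD-IgG over standard diet. It was measured on 9 spots, which ranged from 0.0856 to 0.120, from 0.141 to 0.172 and from 0.0289 to 0.0600 on the same arrays and did not overlap between the arrays. These are repeats within 1 array per group and say nothing of the spread between animals.

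Abcc5 has 3 further probes, which were dimmer. None was detected with standard diet: one was at least 5.21-fold and another at least 1.51-fold higher with HFD-IgG, and the last was detected on no array. In anti-VLA-4 over HFD-IgG the first of these was at least 5.85-fold lower. The second was 1.64-fold higher, a log2 difference of 0.71 against -0.62 for the brightest probe of Abcc5. The direction of Abcc5 between these 2 arrays thus depends on the probe. Abcc4, an exporter of bile acids and cyclic nucleotides, had 0.0856, 0.133 and 0.0609, 2.18-fold higher with HFD-IgG over standard diet, and quantile scaling reduced its log2 difference to 0.30. Abcc1, a general exporter of conjugates, was not detected with standard diet and was at least 2.70-fold higher with HFD-IgG. Abcc12 was at least 2.48-fold higher with HFD-IgG over standard diet and 2.15-fold lower with anti-VLA-4 over HFD-IgG. Quantile scaling also reduced the log2 differences from standard diet of Abcc1 and Abcc12 with HFD-IgG, to 0.26 and 0.11. Those of Abcc9 and Abcc5 were 1.70 and 1.19 under it.

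The ABCD transporters carry very long chain and branched fatty acids into peroxisomes, apart from the lysosomal cobalamin transporter Abcd4. Abcd2, a peroxisomal transporter of fatty acyl-CoA, had 0.368 with anti-VLA-4, 0.282 with HFD-IgG and 0.0714 with standard diet. It was 3.95-fold higher with HFD-IgG and 5.16-fold higher with anti-VLA-4 over standard diet, and the difference between anti-VLA-4 and HFD-IgG, 0.38, turned to -0.09 under normexp. Abcd3, a major peroxisomal membrane protein of liver, was level at 104, 95.1 and 110.2, and Abcd4 had 1.5, 1.70 and 2.05.

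The 4 ribosome-associated ATPases are Abce1, which splits ribosomes for recycling, and Abcf1, Abcf2 and Abcf3. By brightest probe, all had log2 differences below 0 with both high-fat diet groups over standard diet. A second, dimmer probe of Abcf1 gave 0.13 for HFD-IgG over standard diet and -0.94 for anti-VLA-4 over standard diet. For anti-VLA-4 over HFD-IgG it gave -1.07 against -0.15, so the values of Abcf1 depend on the probe. By brightest probe none was called, and the differences of Abcf1 with HFD-IgG (-0.15) and Abce1 with anti-VLA-4 (-0.11) were within the scanner error. Their median log2 difference from standard diet was -0.35 with anti-VLA-4 and -0.34 with HFD-IgG, against -0.11 and -0.10 for the 7726 bright gene names. Abcf3 had 5.61, 4.97 and 7.46 and Abcf2 had 1.22, 1.42 and 1.89 with anti-VLA-4, HFD-IgG and standard diet.

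In the ABCG family, Abcg1, which exports cholesterol to high-density lipoprotein and is known best from macrophages, had 0.548 with anti-VLA-4, 0.991 with HFD-IgG and 0.215 with standard diet. The 3 arrays are well apart: the gene was 4.60-fold higher with HFD-IgG and 2.54-fold higher with anti-VLA-4 over standard diet, and 1.81-fold lower with anti-VLA-4 over HFD-IgG. Abcg2, the canalicular exporter of drugs and urate, was the flattest bright gene, at 22.6, 22.1 and 21.4.

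Grouped by membrane, the 6 sinusoidal uptake carriers listed, Slco1b2 and Slc22a7 among them, were all above 0 in anti-VLA-4 over HFD-IgG, with a median of 0.26. The 6 were also above 0 under quantile scaling, cyclic loess and normexp. They are part of the 33 bright transporters, of which 28 were above 0, against 49.6% of the bright gene names, so this is no separate result. Of the 5 canalicular efflux genes Abcb1a, Abcb4, Abcc2, Abcg2 and Slc47a1, 4 were above 0, the exception being Abcb4, with a median of 0.22, and none was called in any comparison. Of the 5 sinusoidal efflux genes Abcc1, Abcc3, Abcc4, Abcc5 and Abcc6, 3 were called higher in HFD-IgG over standard diet, Abcc1, Abcc4 and Abcc5, where 20.4% of all gene names were, and the median log2 difference was 1.13, or 0.26 under quantile scaling.

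The 9 transporters detected on all 3 arrays and called higher with HFD-IgG fell into 2 orders of arrays. By brightest probe, Abcc9, Abcg1, Abcc5, Slco3a1, Slc22a17 and Abcc4 were each intermediate with anti-VLA-4, highest with HFD-IgG and lowest with standard diet. That order held for 6 of these 9 transporters (66.7%) and for 1086 of 1439 gene names selected in the same way (75.5%). The sums of the Kupffer cell, endothelial, stellate and cholangiocyte markers had it too. Mpeg1 of the Kupffer cell list, Kdr of the endothelial list and Spp1, Sox9, Krt19 and Krt7 of the cholangiocyte list did not. The sum of the T and NK cell markers, mostly Cd3e and Nkg7, was lowest with HFD-IgG. That of the neutrophil and monocyte markers was lowest with anti-VLA-4. Csf3r, at 58.3 with anti-VLA-4, 69.7 with HFD-IgG and 66.2 with standard diet, made up most of it. Of those 5 markers 3, S100a8, S100a9 and Ly6c1, were called higher with anti-VLA-4 over standard diet, where 7.99% of all gene names were. In that comparison 1 marker, Csf3r, was below 0. Of the 9 transporters, Slc22a7, Abcd2 and Abca8a were instead highest with anti-VLA-4. The sum of hepatocyte markers differed between arrays by little. The part of other cells in these differences was not tested.

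**Figure D4:**
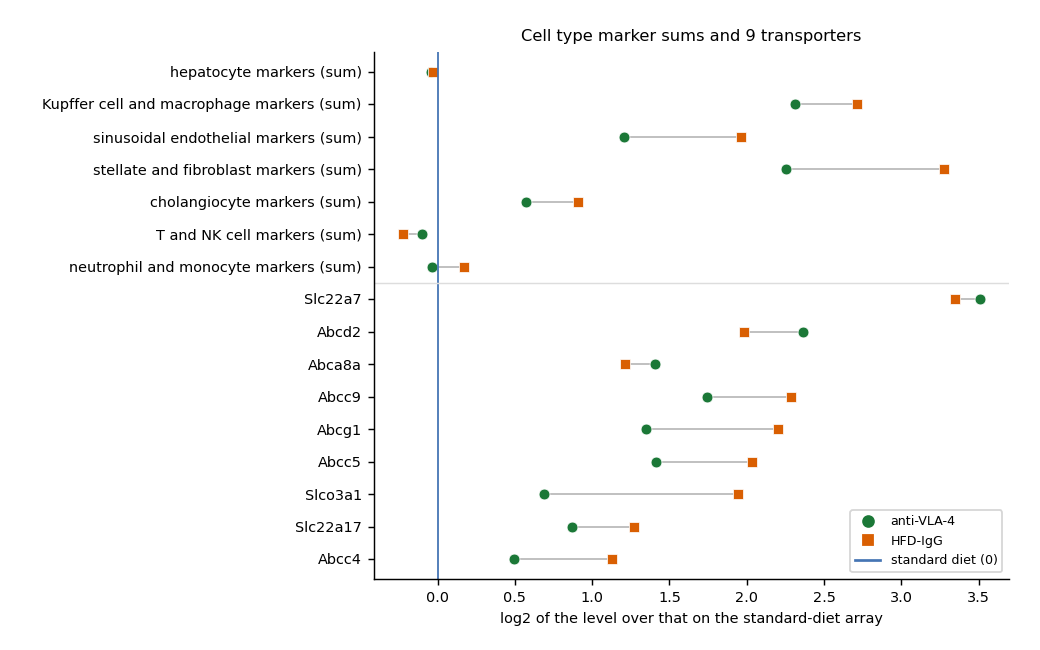
Log2 of the level over that on the standard-diet array, with the anti-VLA-4 array as circles and the HFD-IgG array as squares, for the summed markers of 7 cell type lists and for the 9 transporters measured on both arrays and at least 2-fold higher with HFD-IgG over standard diet. The squares lie right of the circles for 5 of the 6 sums of non-hepatocyte markers and for 6 of the 9 transporters, and left of them for the T and NK cell sum, Slc22a7, Abcd2 and Abca8a. Csf3r makes up most of the neutrophil and monocyte sum.

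Genes that act beside these transporters gave the following values. Of 18 nuclear receptors and other regulators of transporter genes, Bcl6, a transcriptional repressor, was the only one at least 2-fold different in HFD-IgG over standard diet, with 6.86 with anti-VLA-4, 8.68 with HFD-IgG and 1.85 with standard diet. Cux2, another repressor, was the only one called in anti-VLA-4 over HFD-IgG. It was dim and detected with HFD-IgG alone, at 0.0470, and was at least 2.10-fold lower with anti-VLA-4. The xenobiotic receptors Nr1i3 (CAR), at 19.2, 10.8 and 19.5, and Nr1i2 (PXR), at 4.95, 3.58 and 6.43, were lowest on the HFD-IgG array. Of 13 other transporters, Cftr, Slc10a2, Slc10a5 and Tap1 were higher with HFD-IgG over standard diet, where 20.4% of all gene names were. Cftr was not detected with standard diet, and Slc10a5 was 2.02-fold higher at levels of 0.172 with HFD-IgG and 0.0853 with standard diet. None of the 13 was called in anti-VLA-4 over HFD-IgG. Slc10a2, the apical bile acid carrier, had 3.69, 2.20 and 0.690. The 5 genes left out of the set were all higher with anti-VLA-4 than with HFD-IgG, with a median log2 difference of 0.69. Among them Slco1a1, a hepatic OATP, had 2.68, 0.919 and 4.66, and Abcb11, the bile salt export pump, had 51.6, 29.4 and 31.9.

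**Figure D5:**
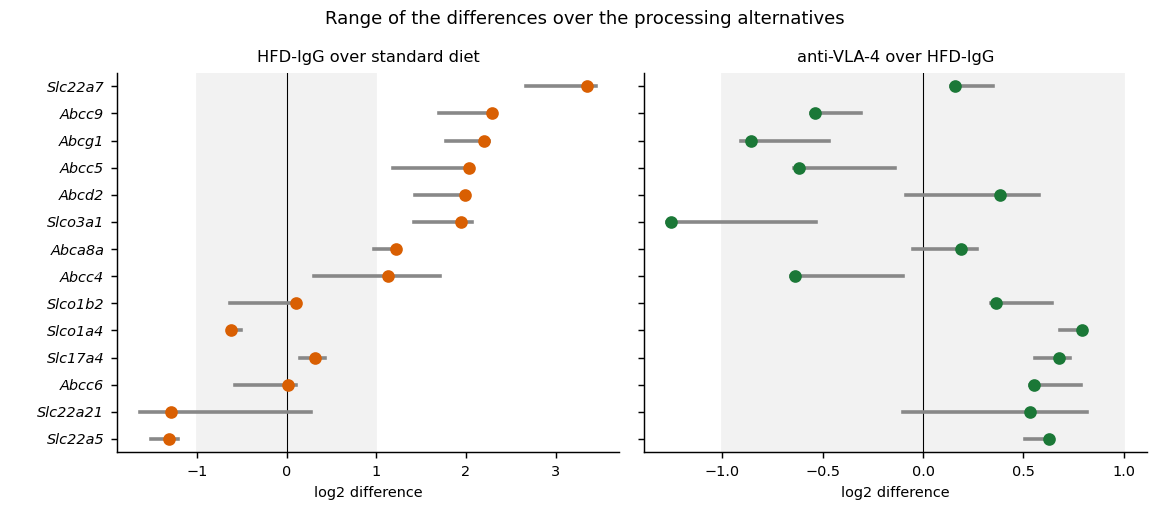
Log2 difference as reported (circle) and its range over the processing alternatives (bar) for 14 transporters, in HFD-IgG over standard diet and in anti-VLA-4 over HFD-IgG; the grey band spans less than 2-fold. In the left panel the bars of Slc22a7, Abcc9, Abcg1, Abcc5, Abcd2 and Slco3a1 stay right of the band and that of Slc22a5 stays left of it, whereas the bar of Slc22a21 crosses 0.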

How the data were processed

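RNA of 3 groups was hybridised to arrays of 1 colour (Cy3). The scanner output was read with Agilent Feature Extraction (version 11.0.1.1 in the submitters' processing notes). Per the file headers, the processed intensities had background subtracted and were detrended within the array. A second, deposited table gives 23206 spots as a ratio on a linear scale, found to be the processed signal over the array's 75th percentile (largest relative deviation 2e-08; column medians 0.810 for anti-VLA-4, 0.796 for HFD-IgG and 0.787 for standard diet), and 0 of its columns lacked a sample. Detection and outlier flags of spots are other values of the software, per the file headers.

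From these intensities, log2 of the processed signal minus log2 of the 75th percentile over 43020 non-control spots was computed, leaving out 380 outlier-marked spots, with spots of a probe averaged and the brightest probe of 39395 taken per array gene name. The 90 genes have 117 probes, 24 have several, and 88 matched a RefSeq symbol, of which 1 is now another (Slc22a9, now Slc22a19). A gene was compared when detected on 1 of the arrays or both. With 1 array per group there was no test. The number of arrays limits the precision.

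The genes and lists were chosen with earlier results of these data known. Named genes followed a rule: per family list the 3 with the highest mean level among those detected on all arrays, in each comparison the 6 most raised and 6 most lowered among genes detected on both arrays and up to 4 bounds, genes whose probes opposed each other by 2-fold, and listed neighbours at least 2-fold different. It took 53 genes, and others are named to complete a family, chosen after their values were seen. A few of the named genes are left unreported here. Alternatives were quantile scaling, cyclic loess, the median of bright probes, normexp with offset 50, the mean over probes, kept outlier spots, the deposited table, other filters and other thresholds. Tools were limma 3.58.1 in R 4.3.3 and, in Python 3.11.15, pandas 2.3.3, numpy 2.4.6 and matplotlib 3.10.9. The steps were tested on simulated data.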

Additional observations from a re-analysis of the deposited data

How the results depend on the processing

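Counts of transporters called moved with the processing. The median difference over the transporters ran from -0.21 to 0.14 for HFD-IgG over standard diet, so its sign depended on the processing. It ran from 0.07 to 0.24 for anti-VLA-4 over HFD-IgG and from 0.11 to 0.23 for anti-VLA-4 over standard diet. Less the median of all gene names, it moved under normexp from -0.06 to -0.48, from 0.22 to 0.21 and from 0.17 to -0.07 in the same order. In HFD-IgG over standard diet, 14 higher and 3 lower became 6 and 7 under quantile scaling, which shifted the median of all genes by -0.10, and 20 and 5 under normexp, which shifted it by 0.44. The share of higher among all calls on the array was 89.4%, and 47.4% under quantile scaling. There, 9 transporters were higher with the deposited table and with detection on both arrays required, 6 higher and 1 lower with probes of at most 50% purines, 1 and 1 above the 75th percentile, 10 lower at 1.5-fold, and 8 higher and 0 lower at 3-fold. In anti-VLA-4 over HFD-IgG, 0 higher and 6 lower became 4 and 2 under quantile scaling, which shifted the median of all genes by 0.11 and moved the share of higher calls on the array to 54.5%, against 10.3%. Lower calls numbered 0 under normexp, 1 with the deposited table, 2 with detection on both arrays, 0 above the 75th percentile and 1 with at most 50% purines. There were 2 higher without a filter, 8 higher and 11 lower at 1.5-fold, and 3 lower at 3-fold. In anti-VLA-4 over standard diet, 6 higher and 1 lower became 18 and 3 under normexp, which shifted the median of all genes by 0.28, 10 and 5 without a filter, 1 and 0 above the 75th percentile, 16 and 7 at 1.5-fold, and 3 higher at 3-fold. There, 0 were lower with the deposited table and with detection on both arrays. The log2 difference of Slc22a21 in HFD-IgG over standard diet, -1.29, reversed to 0.27 under normexp. The cause of these shifts was not tested, beyond the fewer genes that a stricter filter or threshold leaves. Of the 14 higher calls 6 remained under quantile scaling, those of Slc22a7, Abcc9, Abcg1, Abcc5, Abcd2 and Slco3a1. Dim signals limit the detection of 21 genes. No replicate could be left out with 1 array per group. No paired analysis was possible because each group has 1 array.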

Other observations

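Relatives of Slc22a7 in a group of organic anion carriers special to rodents stand on the array under older names, so the naming rule left them out. Through the accessions in the files, RefSeq symbols were found for them. Slc22a27 had a level of 0.409 with anti-VLA-4 and 0.257 with HFD-IgG and was not detected with standard diet, at least 15.9-fold and 9.99-fold higher on these arrays. Slc22a29 had 0.281 and 0.233 and was again not detected with standard diet, at least 10.9-fold and 9.05-fold higher. Slc22a26 had 0.102 with anti-VLA-4 and 0.0527 with HFD-IgG, at least 3.95-fold and 2.05-fold above standard diet. All 3 were thus detected with both high-fat diet groups and not with standard diet, and Slc22a7 was also lowest with standard diet.

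Slc22a28, a further relative, was detected on all 3 arrays by 2 probes. They gave levels of 4.30, 2.75 and 2.08 and of 5.16, 3.66 and 2.70 with anti-VLA-4, HFD-IgG and standard diet. The probes of Slc22a26 to Slc22a29 lie near each other on chromosome 19, and signal between such close relatives is uncertain. Slc22a22 had 0.0340 with anti-VLA-4 and 0.0440 with HFD-IgG and was not detected with standard diet, at least 1.32-fold and 1.71-fold higher. Slc22a19, listed on the array as Slc22a9, was detected on no array.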
